A study of Homo sapiens with 66 samples.

Results

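The nuclear-encoded subunits of the mitochondrial respiratory chain and ATP synthase were described in human embryonic stem cells (hESC) and the cells made from them on the way to spinal motor neurons. Members were the protein-coding genes whose symbols carry the NDUFA, NDUFB, NDUFC, NDUFS, NDUFV, SDHA to SDHD, UQCR, CYC1, COX4 to COX8, ATP5F1, ATP5M and ATP5P names, with assembly factors (NDUFAF) and pseudogenes left out. The rule found 90 of 60603 annotated genes, and 88 remained after removal of 2 readthrough genes that join a member to its neighbour. Of these, 37 belonged to complex I, 4 to complex II, 10 to complex III, 19 to complex IV and 18 to complex V.

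Bulk poly(A) RNA-seq of wild-type H9 cells gave 66 libraries in 22 groups of 3. The first groups were hESC, then days 1 to 4 of differentiation into human neuromesodermal progenitors (hNMP-D1 to hNMP-D4), with day 1 in mTeSR and the rest in N2B27 with FGF2, CHIR99021, SB431542 and Dorsomorphin. Neural determination followed for 6 days (NeuDet-D1 to NeuDet-D6) in a medium that added FGF8 and Compound E. Spinal cord neural progenitors (hSCNPC) were then kept in SB431542, CHIR99021 and Purmorphamine and sampled at passages 5, 10, 20, 30 and 40 (P5 to P40). Motor neuron cultures (hMN) were sampled at days 6, 12, 18, 24, 30 and 42 in Purmorphamine, Compound E, BDNF, GDNF and NT-3. All groups come from the same parental line, and nothing states whether the 3 libraries of a group were separate cultures, so the p-values measure the spread between libraries, which may be technical.

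Complexes I and II pass electrons from NADH and succinate to ubiquinone, complex III passes them on to cytochrome c, and complex IV passes them to oxygen. Complexes I, III and IV pump protons across the inner mitochondrial membrane, and complex V (ATP synthase) uses the gradient to make ATP. The nucleus encodes most subunits and mitochondrial DNA (mtDNA) the rest, except that all subunits of complex II are nuclear. Pluripotent and proliferating progenitor cells are known for high glycolysis, and neurons for their reliance on oxidative phosphorylation.

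Library totals ran from 14142238 to 40204753 counts with a median of 20676228. The marker lists followed the stage labels in part. Pluripotency markers summed to 1829 CPM (counts per 1000000 of the TMM-scaled library size) in hESC, 751 in hNMP-D4 and 106.5 in NeuDet-D6. The sum of the 4 neuromesodermal markers did not peak at the stage named for them. It was 35.31 CPM in hESC, 329.9 in hNMP-D4, 1245.0 in NeuDet-D1, 1044.0 in NeuDet-D6, 1.413 in hSCNPC-P5 and 138.4 in hSCNPC-P30. In hSCNPC-P30, 2 of the 4 markers had no counts, so that sum does not stand for the whole list. In hSCNPC-P40 against hSCNPC-P5, 1 of the 4 rose and 1 fell. Neural progenitor markers summed to 698.8 CPM in hESC, 830.0 in hNMP-D4, 887.1 in NeuDet-D6 and 3739.0 in hSCNPC-P5. The sum hides opposite moves in NeuDet-D6 against hNMP-D4, where 3 of the 5 markers fell and 1 rose. All 5 rose in hSCNPC-P5 against NeuDet-D6. Motor neuron markers summed to 64.26 CPM in hMN-D6 cultures against 4.08 CPM in hSCNPC-P10 on the same scale. In motor neuron cultures the 8 pericyte and mesenchyme markers summed to 53.45 CPM at day 6 and 833.5 CPM at day 42. The list is not specific to such cells here, since it also summed to 301.0 CPM in hESC and 235.3 CPM in NeuDet-D2. Bulk libraries cannot tell other cells from these genes being read in the same cells. In bulk libraries, fewer cells of a type and less RNA per cell cannot be told apart. The motor neuron libraries lie in a table of their own, so the comparison of hMN-D6 with hSCNPC-P10 crosses the tables, and table and stage cannot be told apart there. CPM were scaled by TMM within 2 fits, and values of hSCNPC-P10 are given on the hMN scale wherever they stand beside hMN values.

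Not every member could be measured well. Counts in all 66 libraries together came to 48 for COX4I2, 7 for COX6A2, 4 for COX7B2, 10 for COX8C and 25 for NDUFA6. NDUFA6 and COX8C have their whole sequence repeated on alternate contigs of the reference, and NDUFA3, with 461 counts, 96.4% of it. Genes on opposite strands or with overlapping exons share reads with some members, among them NDUFS7 (51.4% of its exon bases), NDUFB8 (48.5%), NDUFV2 (28.4%), ATP5F1E (23.2%) and NDUFA13 (21%). Close copies elsewhere in the genome cover 44.1% of SDHC, 28.7% of SDHD and 25% of SDHA. Values of these genes are uncertain for that reason. The filter on low counts left 83 members in the fit of hESC to hSCNPC-P40 and 82 in the fit of hMN and hSCNPC-P10.

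Summed over the complexes, the members varied little up to the progenitor stage and were lower in motor neuron cultures. The summed level of all members was 7592.8 ± 620.0 CPM in hESC, 8626.2 ± 361.0 in hNMP-D4, 9066.1 ± 803.0 in NeuDet-D6, 8038.5 ± 295.0 in hSCNPC-P5 and 8605.9 ± 139.0 in hSCNPC-P40 (SD, n = 3 each). The highest and lowest group means among these 16 groups, NeuDet-D6 and hSCNPC-P20, differed by 1.22 times, and several neighbouring groups overlapped library by library. On the hMN scale the sum was 7254.3 ± 482.0 CPM in hMN-D6, 5625.0 ± 52.2 in hMN-D24, 5679.2 ± 77.5 in hMN-D30 and 6096.0 ± 146.0 in hMN-D42, against 9073.1 ± 164.0 in hSCNPC-P10. No hMN library of these days reached the lowest hSCNPC-P10 library, which had 8964.2 CPM. That separation depends on the TMM scale. As a share of library counts, hMN-D6 replicate 1 had 0.7651% in members, against 0.7521% in hSCNPC-P10 replicate 3.

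**Figure D1:**
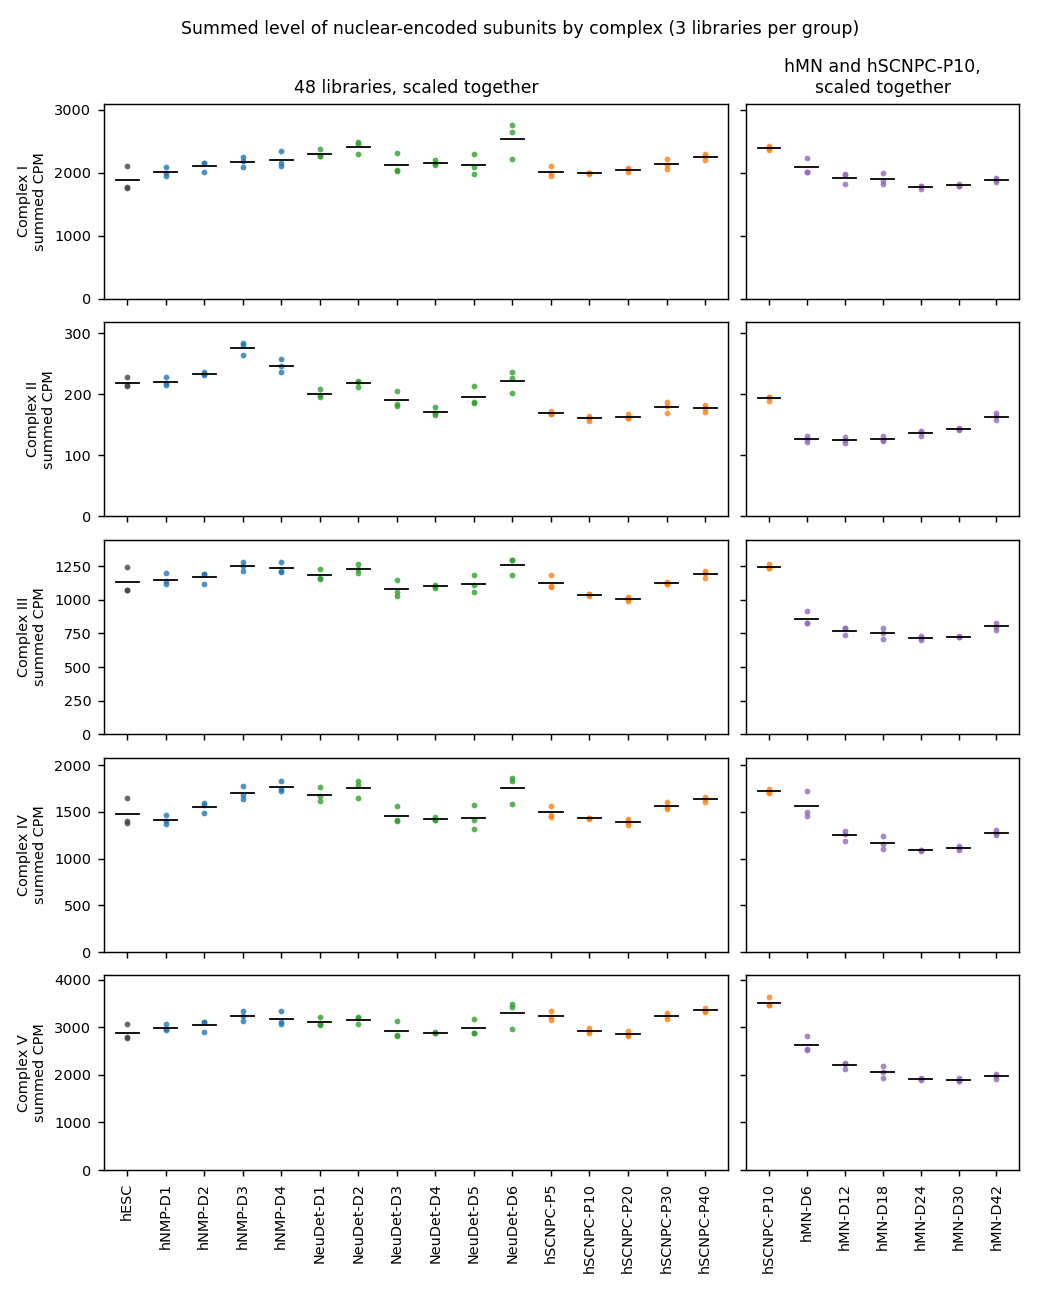
Summed CPM of the members of each complex (y axis, from 0) in each group (x axis, in order of time), with a point for each of 3 libraries and a bar at the mean; left, the 48 libraries of hESC to hSCNPC-P40; right, hSCNPC-P10 and hMN libraries on a scale of their own. In all 5 complexes the hSCNPC-P10 points of the right panel lie above the hMN-D24 and hMN-D30 points.

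The complexes did not all have their highest mean in the same group, though some of these means lay close to those of NeuDet-D6. Complex I was highest in NeuDet-D6 at 2540.3 CPM and lowest in hESC at 1881.6 CPM. Complex III was also highest in NeuDet-D6, at 1258.8 CPM. Complex II had the widest span of the first 16 groups, 1.72 times, with 276.1 CPM in hNMP-D3 and 160.7 CPM in hSCNPC-P10. Complex IV was highest in hNMP-D4 at 1766.3 CPM, and complex V in hSCNPC-P40 at 3350.6 CPM, with a span of only 1.17 times. Among hSCNPC-P10 and the hMN groups, complex V had the widest span, 1.86 times, with 1892.0 CPM in hMN-D30 against 3516.1 CPM in hSCNPC-P10. Complex III followed with 1.74 times, and complex I had the narrowest span with 1.35 times.

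The comparisons ask which subunits differ between the ends of each culture step. Consecutive comparisons share a group (hNMP-D4, NeuDet-D6, hSCNPC-P5, hMN-D6 or hMN-D30), and hESC and hSCNPC-P10 each serve in a pair of them, so the counts are not independent of each other. A gene was called where edgeR's quasi-likelihood test gave a Benjamini-Hochberg adjusted p under 0.05 over all genes of the fit.

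At the neuromesodermal stage more subunits were higher than lower. In hNMP-D4 against hESC, 42 of 83 members rose and 5 fell, against a background of 26.7% higher and 27.6% lower over all genes tested. The median log2 fold change of the members was 0.248, and that of all genes 0.006. The risers came from all complexes, with 19 of 36 in complex I and 10 of 15 in complex IV. Among the 5 that fell were COX6B2, COX7A1 and COX7C, and 3 fell when hNMP-D4 replicate 2, hNMP-D4 replicate 3 or hESC replicate 1 was left out. Changes were small: 2 members changed by at least 2-fold, against 21% of all genes. The hESC library of replicate 1 had the highest share of counts in members in its group (0.8131%, lowest 0.7111%), and without it the median was 0.3804. All 4 cell cycle markers fell in this comparison, with sums of 628.3 to 1062.0 CPM in hNMP-D4 against 1322.0 to 1497.0 CPM in hESC, and their part in the result was not tested.

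Between the ends of neural determination the direction was mixed but leaned upward, and this rests on NeuDet-D6. The summed level was 8477.0 CPM in NeuDet-D1, 8773.1 in NeuDet-D2, 7779.5 in NeuDet-D3, 7734.1 in NeuDet-D4 and 7846.9 in NeuDet-D5. Days 3 to 5 thus lay below the 8626.2 CPM of hNMP-D4. NeuDet-D6 lay above it with a mean of 9066.1 CPM, though its replicate 3 had 8147.1. In NeuDet-D6 against hNMP-D4, 35 members rose and 14 fell (background 30.3% and 34.8%), with a median of 0.141 against -0.045 for all genes. Scaling by library totals alone gave 47 higher and 10 lower, with a median of 0.245. The median was 0.2666 without hNMP-D4 replicate 1 and 0.255 without NeuDet-D6 replicate 3, and in the second case 9 members fell. Complex I held 21 of the risers, and in complex IV as many fell as rose, 3 each. Fold changes of at least 2 were seen in 4 members (29.4% of all genes): ATP5F1E and ATP5MC2 rose, and COX6B2 and SDHD fell. Of 4 cell cycle markers 3 rose and none fell, with sums of 1422.0 to 1549.0 CPM in NeuDet-D6 against 628.3 to 1062.0 CPM in hNMP-D4, and their part in the result was not tested.

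From NeuDet-D6 to hSCNPC-P5 the fall was broad. It starts from NeuDet-D6, which had the highest summed level of the first 16 groups. The sum in hSCNPC-P5, 8038.5 CPM, lay above those of NeuDet-D3 to NeuDet-D5 (7734.1 to 7846.9 CPM). In hSCNPC-P5 against NeuDet-D6, 51 members fell and 5 rose (background 30.6% and 28.8%), with a median of -0.364 against -0.024 for all genes. Members fell in every complex: 22 of 36 in complex I, 3 of 4 in complex II, 6 of 10 in complex III, 8 of 15 in complex IV and 12 of 18 in complex V. The 5 risers were ATP5MC2, ATP5F1D, NDUFA10, CYC1 and ATP5F1A. Leaving out hSCNPC-P5 replicate 1 or replicate 2 left 3 risers, and scaling by library totals left 2. Changes of at least 2-fold were found in 2 members, NDUFS5 and SDHB, both lower (background 23.3%). In the same comparison 3 of 4 cell cycle markers fell, and their part in the result was not tested.

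Between passages 5 and 40 rises were small and outnumbered falls, but the course was not steady. The summed level was 8038.5 CPM in hSCNPC-P5, 7539.6 in hSCNPC-P10, 7461.6 in hSCNPC-P20, 8227.9 in hSCNPC-P30 and 8605.9 in hSCNPC-P40. In hSCNPC-P40 against hSCNPC-P5, 27 members rose and 3 fell (background 22.8% and 24.1%), with a median of 0.12 against -0.011 for all genes. The rises were small, led by ATP5MC1, SDHB and COX5A, and the largest called change was that of NDUFA13, -0.62, while 17.6% of all genes were called at 2-fold or more. Without hSCNPC-P5 replicate 2 the count of risers was 16 and without replicate 3 it was 17, then with a median of 0.0542. Set against hESC, hSCNPC-P10 had 27 members higher and 21 lower (background 36.4% and 38.7%), so the shares called over all members were below or near those of all genes. The complexes differed. In complex I 18 of 36 members were higher and 6 lower, and in complex II 0 of 4 were higher and 2 lower. Higher and lower members numbered 2 and 3 of 10 in complex III, 3 and 6 of 15 in IV, and 4 and 4 of 18 in V. The median of all members in that comparison was 0.016, against -0.012 for all genes. It was 0.1662 without hESC replicate 1, and -0.03 with RLE scaling. Of the 5 members past 2-fold (44% of all genes), ATP5F1E and ATP5MC2 were higher and COX7A1, COX6B2 and SDHD lower.

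At the step to motor neuron cultures the subunits as a set fell relative to other genes, but those of complex IV did not. In hMN-D6 against hSCNPC-P10, 46 of 82 members fell and 12 rose (background 36.7% and 38.5%), with a median of -0.213 against 0.079 for all genes. Members fell in complex I (21 of 35, with 5 higher), II (4 of 4), III (5 of 10, none higher) and V (11 of 18, with 1 higher). In complex IV 6 of 15 rose and 5 fell, with a median of 0.142. Library totals alone gave 28 higher and 28 lower with a median of 0.011, while the median of all genes moved to 0.304 as well. The members lay below the median of all genes by 0.292 with TMM and by 0.293 with library totals. The 7 members past 2-fold (background 39%) were COX7A1, NDUFA4L2, COX6B2 and NDUFA9, which rose, and SDHD, CYC1 and ATP5MC2, which fell. Cell cycle markers summed to 34.19 CPM (32.02 to 38.21) in hMN-D6 against 1383.0 CPM (1369.0 to 1402.0) in hSCNPC-P10, with all 4 lower, and their part in the result was not tested.

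Between days 6 and 30 most members fell. In hMN-D30 against hMN-D6, 56 members fell and 10 rose (background 30.5% and 32.9%), with a median of -0.303 against 0.023 for all genes. With library totals the split was 43 lower and 15 higher, and the median of all genes 0.127. The fall took in 9 of 10 members of complex III, 12 of 15 of complex IV and 15 of 18 of complex V. Complex II went the other way, with 3 of 4 members higher. Without hMN-D6 replicate 1, which had the highest sum of its group, the median was -0.2029. Only ATP5MC2 passed 2-fold, 1 of 82 members (20.5% of all genes). Marker lists of other cell types moved at this step too. Of 6 glial markers 5 rose and 1 fell, with sums of 41.43 to 50.51 CPM in hMN-D30 against 15.56 to 17.13 CPM in hMN-D6. Of 7 tested pericyte and mesenchyme markers 3 rose and 1 fell, with sums of 103.1 to 334.2 CPM in hMN-D30 against 50.8 to 56.79 CPM in hMN-D6. Of 5 progenitor markers 4 fell, with sums of 427.1 to 439.8 CPM in hMN-D30 against 1478.0 to 1550.0 CPM in hMN-D6. Whether a change in cell types had a part in the result was not tested.

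At day 42 rises outnumbered falls. In hMN-D42 against hMN-D30, 25 members rose and 4 fell (background 21.8% and 19.9%), with a median of 0.095 against 0 for all genes. The largest called change was that of NDUFA13, -0.61, while 6.28% of all genes were called at 2-fold or more. Complex IV led with 9 of 15 members higher. The pericyte and mesenchyme list moved with it: 7 of 7 tested markers rose, with sums of 760.9 to 890.5 CPM in hMN-D42 against 103.1 to 334.2 CPM in hMN-D30. All 4 cell cycle markers rose too, with sums of 69.21 to 77.77 CPM in hMN-D42 against 24.13 to 33.53 CPM in hMN-D30. Whether a change in cell types had a part in the rise of the subunits was not tested.

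**Figure D2:**
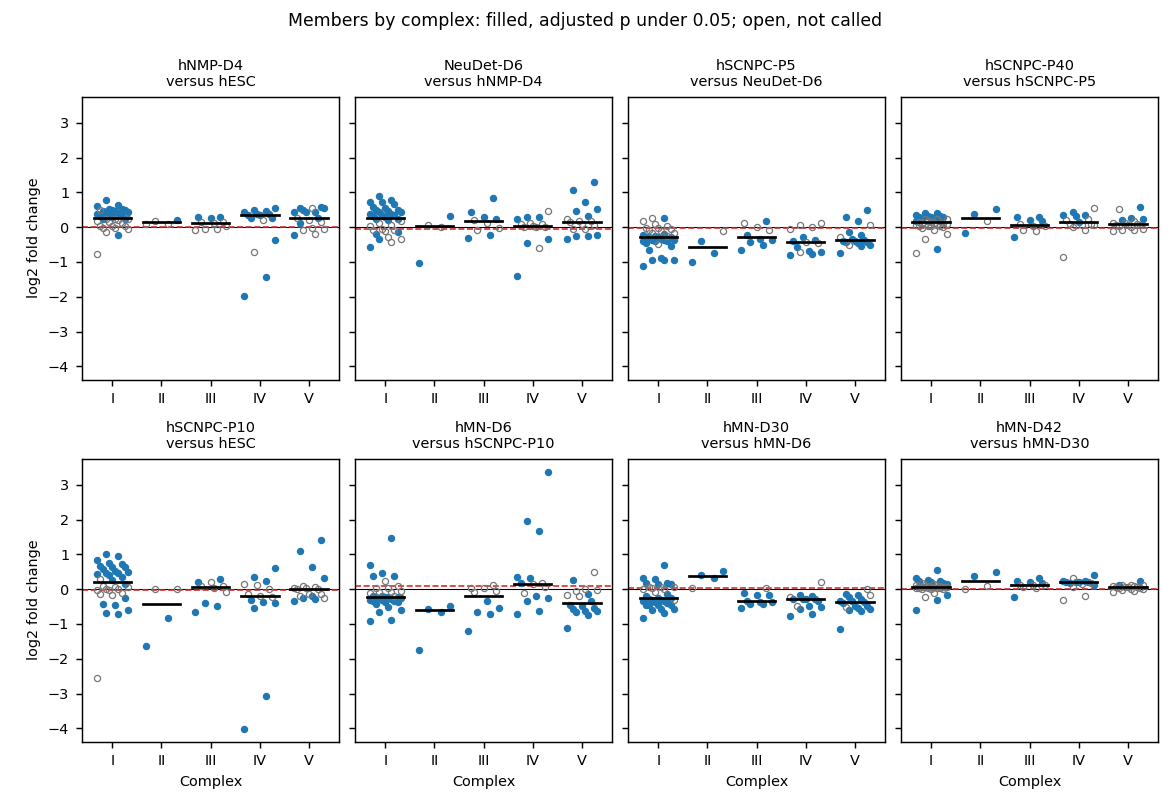
Log2 fold change (y axis) of each tested member by complex (x axis) in the 8 comparisons, 1 panel each; filled points passed an adjusted p under 0.05 and open points did not. Filled points lie mostly above 0 for hNMP-D4 versus hESC (42 to 5) and mostly below 0 for hSCNPC-P5 versus NeuDet-D6 (5 to 51) and for hMN-D30 versus hMN-D6 (10 to 56).

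Within complex I the core subunits did not move as a block. NDUFS1, the iron-sulfur subunit of the NADH-oxidizing arm, had 156.0, 169.8 and 198.2 CPM in hNMP-D4 against 117.3, 127.2 and 122.2 CPM in hESC. All hNMP-D4 libraries lay above all hESC libraries, and the log2 fold change was 0.52 ± 0.0593 (SE, edgeR adjusted p = 1.04e-10). It was lower again in NeuDet-D6, at 116.8, 115.9 and 122.7 CPM (-0.56 ± 0.0586, adjusted p = 2.95e-12). In hMN-D6 it had 133.7, 138.2 and 141.4 CPM, against 103.9, 111.2 and 105.0 CPM in hSCNPC-P10, a rise of 0.37 on the log2 scale in a comparison where most members fell. NDUFS3, a core subunit with no redox centre of its own, took the opposite course there, with 63.32, 57.76 and 56.56 CPM in hMN-D6 against 114.1, 110.0 and 111.4 CPM in hSCNPC-P10 (-0.92). NDUFV1, which holds the FMN that takes electrons from NADH, had 161.1 to 166.7 CPM in hMN-D30 against 139.3 to 153.7 CPM in hMN-D6. NDUFV2 had 2819 counts in all libraries together, so its rise in hMN-D30 (2.265, 2.317 and 2.176 CPM against 1.464, 1.164 and 1.548 CPM in hMN-D6, log2 fold change 0.70 ± 0.223) rests on few reads and on a gene with overlapping annotation.

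NDUFA9, an accessory subunit at the junction of the membrane arm and the peripheral arm, stood apart from the other members. It had 31.48, 35.65 and 37.83 CPM in hMN-D6 against 11.45, 13.05 and 13.47 CPM in hSCNPC-P10. The groups did not overlap, and the log2 fold change was 1.48 ± 0.0769 (adjusted p = 4.18e-23). Its level stayed between 29.4 and 40.83 CPM in the hMN-D24, hMN-D30 and hMN-D42 libraries. Before that it had risen in hNMP-D4 (17.66, 18.17 and 15.13 CPM, against 12.12, 8.756 and 8.578 CPM in hESC) and fallen in hSCNPC-P5 (9.374, 9.813 and 8.515 CPM, against 16.93, 19.5 and 16.55 CPM in NeuDet-D6). Neither pair of groups overlapped, with log2 fold changes of 0.78 and -0.94. Overlapping exons of other genes cover 10.6% of NDUFA9.

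Other accessory subunits of complex I moved in either direction. NDUFS5 had 138.0, 134.7 and 123.6 CPM in hSCNPC-P5 against 296.1, 310.5 and 258.6 CPM in NeuDet-D6, the largest fall of a member there (-1.13 ± 0.0769, adjusted p = 9e-19). NDUFAB1, the mitochondrial acyl carrier protein, fell by 0.95 and NDUFA8 by 0.94 in the same comparison, and both rose by 0.41 in hSCNPC-P40 against hSCNPC-P5. NDUFB11 had 135.7, 149.9 and 107.9 CPM in NeuDet-D6 against 80.7, 72.36 and 60.84 CPM in hNMP-D4 (0.88 ± 0.0932). It remained near that level in hSCNPC and hMN-D6, then had 92.05, 93.84 and 93.79 CPM in hMN-D30 against 166.3, 142.3 and 142.9 CPM in hMN-D6 (-0.69 ± 0.0582). NDUFA13, which shares exon bases with YJEFN3 and another gene, rose by 0.68 in hMN-D6 against hSCNPC-P10 and fell by 0.61 in hMN-D42 against hMN-D30. NDUFB8 rose by 0.38 in hMN-D6 against hSCNPC-P10 and fell by 0.84 in hMN-D30 against hMN-D6. NDUFV3, a small accessory subunit of the peripheral arm, differed little, since its highest and lowest group means differed by 1.28 times in the first 16 groups and by 1.13 times from hSCNPC-P10 to hMN-D42.

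Complex II, succinate dehydrogenase, also works in the citric acid cycle. Its subunits are the flavoprotein SDHA, the iron-sulfur protein SDHB and the membrane anchors SDHC and SDHD. SDHD had the widest span of the 4. It had 33.66, 29.39 and 22.96 CPM in NeuDet-D6 against 64.15, 55.02 and 56.42 CPM in hNMP-D4 (-1.02 ± 0.111, adjusted p = 5.05e-11). It had 18.58, 17.29 and 16.29 CPM in hSCNPC-P5, below every NeuDet-D6 library. In hMN-D6 it had 7.077, 5.586 and 5.176 CPM against 19.74, 20.55 and 19.67 CPM in hSCNPC-P10, the largest fall of a member in that comparison (-1.76 ± 0.115, adjusted p = 3.97e-19). It then rose by 0.40 to hMN-D30 and by 0.48 to hMN-D42, where it had 9.44, 12.39 and 10.82 CPM against 7.885, 7.767 and 7.71 CPM in hMN-D30.

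SDHB fell at a different step. It had 29.07, 28.73 and 30.84 CPM in hSCNPC-P5 against 59.92, 62.09 and 56.2 CPM in NeuDet-D6 (-1.01 ± 0.0796, adjusted p = 2.51e-16), and values in hNMP-D4, hESC and NeuDet-D6 overlapped. It rose by 0.52 in hSCNPC-P40 and fell by 0.65 in hMN-D6 against hSCNPC-P10. It rose again in hMN-D30 (32.15, 34.38 and 32.12 CPM, against 22.08, 22.39 and 23.8 CPM in hMN-D6) and in hMN-D42, by 0.53 and 0.39. SDHC held within 1.27 times between its highest and lowest group means from hESC to hSCNPC-P40. SDHA and SDHC fell by 0.57 and 0.48 in hMN-D6 against hSCNPC-P10, so that all 4 subunits fell there. SDHA and SDHB, the catalytic pair, and SDHD were the 3 members of complex II that rose in hMN-D30.

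SDHD is shown here because it had the largest fall of a member in hMN-D6 against hSCNPC-P10 and because its promoter carries 2 of the motifs searched below. The sequence is the RefSeq reference (GRCh38.p14), bases 120 to 61 upstream of the annotated start, chr11:112086753-112086812 on the plus strand, next to TIMM8B on the other strand. Capitals mark, from left to right, the NRF1 core and the ETS motif.
SDHD: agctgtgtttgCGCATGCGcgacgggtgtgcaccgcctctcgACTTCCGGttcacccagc

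Complex III joins the cytochrome b encoded by mtDNA to nuclear subunits, of which CYC1 (cytochrome c1) and UQCRFS1 (the Rieske iron-sulfur protein) carry electrons. CYC1 fell at the step to motor neuron cultures, with 90.84, 88.9 and 92.1 CPM in hMN-D6 against 206.5, 198.7 and 215.5 CPM in hSCNPC-P10 (-1.19 ± 0.0437, adjusted p = 2.15e-29). Before that step it differed little: its 3 hSCNPC-P5 libraries lay at 176.5 to 180.9 CPM against 144.7 to 169.2 CPM in NeuDet-D6, a log2 fold change of 0.19 that was not called with library totals. UQCRC1, a core protein of the matrix side, fell in both motor neuron steps. It had 185.6, 168.6 and 173.4 CPM in hMN-D6 against 293.5, 282.0 and 287.9 CPM in hSCNPC-P10 (-0.71 ± 0.0469). It had 126.8, 132.6 and 136.0 CPM in hMN-D30, below every hMN-D6 library (-0.42 ± 0.0478). UQCRH, the hinge protein that binds cytochrome c1, had fallen earlier, by 0.42 in hSCNPC-P5 against NeuDet-D6 and by 0.66 in hMN-D6 against hSCNPC-P10. UQCRQ rose by 0.82 in NeuDet-D6 against hNMP-D4, fell by 0.51 in hSCNPC-P5 and rose by 0.33 in hMN-D42 against hMN-D30. UQCRB, the ubiquinone-binding protein, fell by 0.29 in hSCNPC-P40 against hSCNPC-P5, where 4 members of complex III rose.

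In complex IV the nuclear subunits surround the mtDNA-encoded catalytic core. COX4I1, which binds ATP and ADP, had 331.1, 301.7 and 298.2 CPM in hNMP-D4 against 258.1, 209.1 and 219.7 CPM in hESC (0.44 ± 0.0787, adjusted p = 4.48e-06). It had 176.5, 180.7 and 172.5 CPM in hMN-D30 against 340.1, 289.3 and 282.6 CPM in hMN-D6, and the groups did not overlap (-0.78 ± 0.0558, adjusted p = 2.06e-13). Its change from hSCNPC-P10 to hMN-D6 was -0.20 with TMM and 0.0198 with library totals, so no direction is given for that step. COX7C moved at the same later step, with 141.6, 157.7 and 154.8 CPM in hMN-D30 against 262.0, 241.8 and 241.1 CPM in hMN-D6 (-0.71 ± 0.046). It also fell in hNMP-D4, with 237.0, 231.9 and 238.4 CPM against 340.7, 289.3 and 285.7 CPM in hESC, while 10 members of the complex rose. COX5A, a subunit of the matrix side, rose by 0.43 in hSCNPC-P40 against hSCNPC-P5, and fell by 0.63 in hMN-D6 against hSCNPC-P10. NDUFA4, once placed in complex I and now in complex IV, rose by 0.36 in hNMP-D4, fell by 0.45 in NeuDet-D6 and fell by 0.50 in hMN-D30 against hMN-D6. COX7A2L, which joins complexes III and IV into supercomplexes, rose by 0.55 in hNMP-D4 and by 0.40 in hMN-D42, and fell by 0.71 in hMN-D6 against hSCNPC-P10.

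Several subunits of complex IV have a second gene that is used in heart and muscle, lung or testis. COX4I2, COX6A2, COX7B2 and COX8C had at most 14 counts in any library, too few to test. COX6B2, the testis form, had 0.8075, 1.239 and 1.022 CPM in hNMP-D4 against 4.785, 3.665 and 3.65 CPM in hESC (-1.98 ± 0.312, adjusted p = 3.18e-07), and rose again in hMN-D6 with 1.647, 1.815 and 2.081 CPM against 0.4935, 0.6751 and 0.5855 CPM in hSCNPC-P10. It made up 3.896% of COX6B counts in hESC, 0.2352% in hSCNPC-P5 and 1.758% in hMN-D30, with 29.1% of its exon bases overlapped by other genes. COX7A1, the heart and muscle form, had 0.488, 0.512 and 1.014 CPM in hMN-D6 against 0.148, 0 and 0 CPM in hSCNPC-P10. The difference was called, but with 3 counts in all hSCNPC-P10 libraries its fitted fold change sets no size. COX7A1 never exceeded 1.03% of the counts of COX7A1 and COX7A2 as a group mean. Summed muscle markers were 8.128 CPM in hMN-D6 against 3.45 CPM in hSCNPC-P10, and their part in the result was not tested.

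NDUFA4L2, the paralog of NDUFA4 known as a target of HIF1, marked all motor neuron groups. It had 6.65, 5.865 and 6.19 CPM in hMN-D6 against 1.875, 1.2 and 1.581 CPM in hSCNPC-P10 (1.96 ± 0.171, adjusted p = 1.06e-14), and these groups did not overlap. It took 2.853% of the counts of the pair in hMN-D6 and 3.433% in hMN-D30, against 0.8139% in hSCNPC-P10. A list of 9 hypoxia-responsive genes did not move one way at that step, with 3 of 8 tested genes higher and 3 lower.

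**Figure D3:**
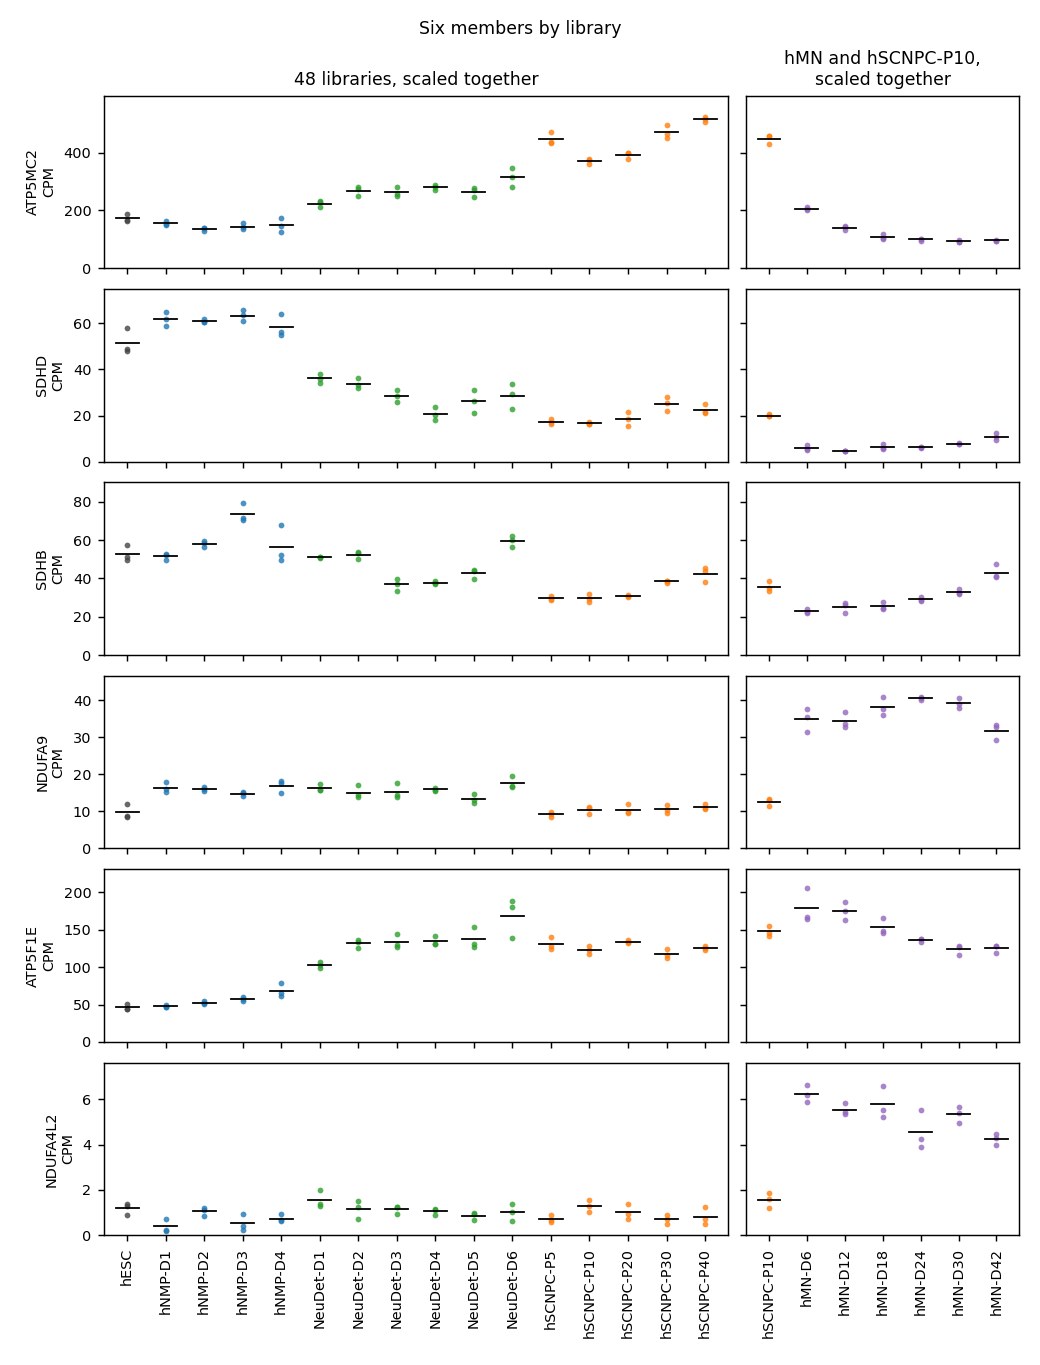
CPM (y axis, from 0) of ATP5MC2, SDHD, SDHB, NDUFA9, ATP5F1E and NDUFA4L2 in each of 3 libraries per group (points, with a bar at the mean), groups in order of time; left, hESC to hSCNPC-P40; right, hSCNPC-P10 and hMN on a scale of their own. ATP5MC2 and SDHD are lower in every hMN group than in hSCNPC-P10, and NDUFA9 and NDUFA4L2 are higher.

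Complex V consists of a catalytic F1 part and a membrane part with a rotating ring of subunit c. ATP5F1B had the highest level of the members per length, 441.7 CPM per kilobase of canonical transcript (the transcript that the GENCODE annotation marks for each gene) as a mean of all 66 libraries, and ATP5F1A had 114.0. ATP5F1A and ATP5F1B, the alpha and beta subunits, held within 605.3 to 803.5 CPM and 669.3 to 1060.0 CPM as group means from hESC to hSCNPC-P40. ATP5F1A fell at both steps of the motor neuron cultures, first to 592.6, 550.1 and 546.7 CPM in hMN-D6 against 852.4, 821.8 and 797.6 CPM in hSCNPC-P10 (-0.55 ± 0.0423, adjusted p = 1.38e-16). It then had 444.3, 437.7 and 434.6 CPM in hMN-D30, below every hMN-D6 library (-0.36 ± 0.0424). ATP5F1B changed by -0.13 with TMM and 0.0891 with library totals in hMN-D6 against hSCNPC-P10, so no direction is given for that step. It fell at the later one: ATP5F1B had 530.2, 549.7 and 527.8 CPM in hMN-D30 against 829.3, 784.0 and 795.1 CPM in hMN-D6 (-0.58 ± 0.0393, adjusted p = 2.48e-18).

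ATP5F1E, the epsilon subunit of the central stalk, was higher at the end of neural determination and in progenitors than in hESC. It had 180.5, 187.9 and 138.7 CPM in NeuDet-D6 against 78.53, 65.86 and 61.33 CPM in hNMP-D4 (1.30 ± 0.0793, adjusted p = 6.53e-21), and those were above the 50.4, 44.65 and 44.66 CPM of hESC. It was 1.40 higher on the log2 scale in hSCNPC-P10 than in hESC. ATP5F1B fell by 0.35 in NeuDet-D6 against hNMP-D4. For ATP5F1E, 23.2% of its exon bases are overlapped by another gene. ATP5F1D, the delta subunit of the same stalk, was 0.29 higher in hSCNPC-P5 than in NeuDet-D6.

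Subunit c is encoded by ATP5MC1, ATP5MC2 and ATP5MC3, whose mature proteins are identical. ATP5MC2 was among the most variable members, its group means differing by 3.81 times from hESC to hSCNPC-P40 and by 4.8 times from hSCNPC-P10 to hMN-D42. It had 315.1, 348.0 and 280.4 CPM in NeuDet-D6 against 175.4, 145.8 and 125.5 CPM in hNMP-D4 (1.08 ± 0.0756, adjusted p = 1.87e-18). It had 469.9, 434.8 and 434.0 CPM in hSCNPC-P5, above every NeuDet-D6 library, in a comparison where 12 of 18 members of complex V fell. It then had 211.4, 206.0 and 200.2 CPM in hMN-D6 against 457.1, 429.4 and 455.7 CPM in hSCNPC-P10 (-1.12 ± 0.0454, adjusted p = 1.53e-27). It had 91.09, 98.38 and 90.15 CPM in hMN-D30, below all hMN-D6 libraries (-1.14 ± 0.0476, adjusted p = 1.42e-26). The other genes moved less at these steps. ATP5MC3 changed by 0.10, -0.43, -0.62 and -0.35, and ATP5MC1 by 0.18, -0.43, -0.47 and -0.15, of which the first value of each did not pass the test. ATP5MC1 rose by 0.58 in hSCNPC-P40 against hSCNPC-P5, the largest rise of a member there.

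The mix of subunit c messages differed between stages. ATP5MC2 made up 31.05% ± 2.1 of the counts of the 3 genes in hNMP-D4, 46.86% ± 0.861 in NeuDet-D6, 62.8% ± 0.749 in hSCNPC-P5, 50.19% ± 0.6 in hMN-D6 and 35.98% ± 0.708 in hMN-D30 (SD, n = 3 each). These groups did not overlap in any neighbouring pair of that order. ATP5MC3 went the other way, with 56.53% in hNMP-D4, 30.2% in hSCNPC-P5 and 47.8% in hMN-D30, and ATP5MC1 ranged from 7.0% in hSCNPC-P5 to 16.23% in hMN-D30 among them. The deposited counts take no account of transcript length. Its share of counts was 41.4% in hESC, 46.86% in NeuDet-D6 and 35.98% in hMN-D30. Divided by the length of all annotated exons (3904 bases for ATP5MC2, 3883 for ATP5MC3 and 2615 for ATP5MC1) it was 38.88%, 44.56% and 33.23% in these groups. Divided by the length of the canonical transcript (632, 2587 and 646 bases in the same order) it was 63.68%, 69.75% and 56.63%. Which of the 3 genes led therefore depends on the length used, and on both scales ATP5MC2 held more in NeuDet-D6 than in hESC and less in hMN-D30.

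**Figure D4:**
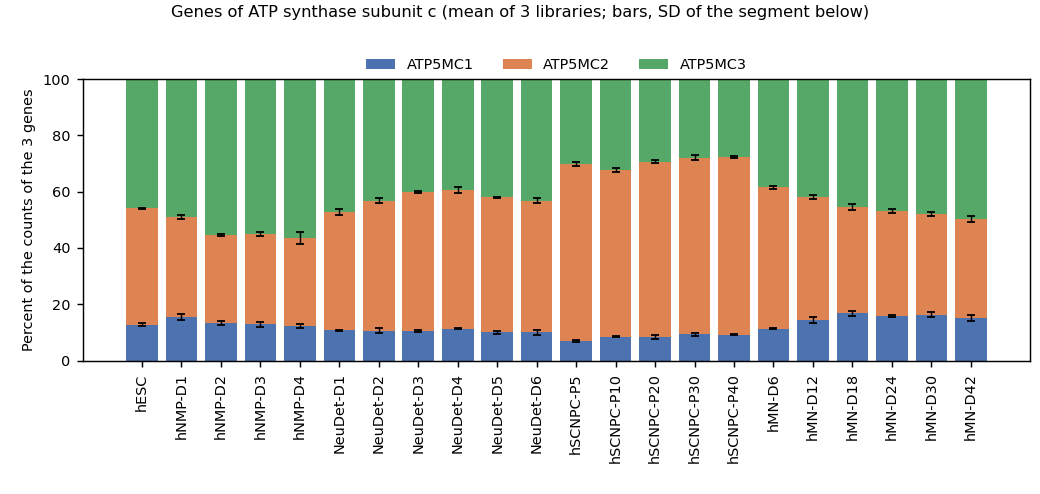
Share of the counts of the 3 subunit c genes (y axis, percent) taken by ATP5MC1, ATP5MC2 and ATP5MC3 in the 22 groups (x axis, in order of time); stacked bars are means of 3 libraries and error bars the SD of the segment below. The ATP5MC2 segment is 31.05% in hNMP-D4, 62.8% in hSCNPC-P5 and 35.98% in hMN-D30.

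ATP5MC2 and ATP5MC1 are shown for the same reason, as genes of the same protein that moved apart. Both stretches are the 60 bases before the RefSeq start in GRCh38.p14: chr12:53676084-53676143 on the minus strand, from 1 of 3 annotated starts of ATP5MC2, and chr17:48892727-48892786 on the plus strand. Capitals mark an NRF1 core, which the shown stretch of ATP5MC1 does not hold. The start of ATP5MC2 was picked from its 3 as the one with the most motif matches in the stretch, while ATP5MC1 has 1 start. The contrast of motifs depends on that choice, and its part in the levels of the genes was not tested.
ATP5MC2: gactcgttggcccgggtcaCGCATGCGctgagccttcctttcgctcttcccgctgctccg
ATP5MC1: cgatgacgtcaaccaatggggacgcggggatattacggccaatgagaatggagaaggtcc

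NRF1, the ETS factor GABPA and YY1 are known regulators of respiratory chain genes, so promoters were searched for their short motifs on both strands. RefSeq promoter windows of 250 bases before to 50 bases after the start were found for 69 of 88 members. The NRF1 core CGCATGCG stood in 11 of 69 members (15.9%), against 3.27% of 15323 protein-coding genes. The ETS motif CCGGAAGT stood in 12 (17.4%, against 7.11%), and the YY1 motif AAGATGGC in 12 (17.4%, against 4.74%). The SP1 motif GGGGCGGG was less common in members, with 13 of 69 (18.8%, against 37.1%). At least 1 of the NRF1, ETS and YY1 motifs was found in 13 of 32 windows of complex I, 2 of 3 of complex II, 4 of 7 of complex III, 3 of 14 of complex IV and 9 of 13 of complex V. The matches are descriptions of letters, and no site was measured. Examples from complexes I, IV and III follow, each the 60 bases before the start, with the NRF1 core (NDUFS6, chr5:1801347-1801406, plus) or the ETS motif on either strand (COX5B, chr2:97646002-97646061, plus, and UQCRH, chr1:46303638-46303697, plus) in capitals. A GC-box match of the SP1 kind overlaps the ETS motif of COX5B.
NDUFS6: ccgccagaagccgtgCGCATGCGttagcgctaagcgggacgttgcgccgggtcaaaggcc
COX5B: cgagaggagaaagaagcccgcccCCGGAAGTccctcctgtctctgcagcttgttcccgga
UQCRH: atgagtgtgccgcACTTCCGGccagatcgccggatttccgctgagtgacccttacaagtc
These genes did not share a course. In hMN-D6 against hSCNPC-P10, NDUFS6 fell by 0.51 and UQCRH fell by 0.66, while COX5B rose by 0.32.

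The regulators themselves changed less than PGC-1 coactivators and an ERR receptor known to act with them. NRF1 rose by 0.33 in NeuDet-D6 against hNMP-D4 and fell by 0.40 in hMN-D6 against hSCNPC-P10, and GABPA fell by 0.42 in hMN-D30 against hMN-D6. PPARGC1A, encoding PGC-1alpha, had a mean of 16.77 CPM in hMN-D30 against 3.044 CPM in hMN-D6 and rose by 2.45. PPARGC1B rose by 2.92 in that comparison, where 56 subunits fell. The list of mitochondrial biogenesis genes as a whole leaned downward there, with 2 of 13 higher and 7 lower. Its summed level was 450.0 CPM in hMN-D30 against 581.7 CPM in hMN-D6. In hMN-D6 against hSCNPC-P10, 2 of the 13 were higher and 10 lower. ESRRG had a mean of 124.1 CPM in hMN-D6 against 12.52 CPM in hSCNPC-P10, a rise of 3.31, and fell by 1.89 in hMN-D30 against hMN-D6.

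Across the 22 group means on a common scale, most members followed the sum of the others. Of 75 members with at least 5 CPM, 57 had a Pearson correlation of 0.5 or more with that sum and 6 a negative one, with a median of 0.795. These are descriptions over groups that share a parental line, 2 tables and a scaling. On that scale the sum ran from 5114.0 to 6578.0 CPM in the hMN groups and from 7810.0 to 9719.0 CPM in the others. The correlations therefore include the step between these sets, where table and stage cannot be told apart. No correlation within either set was taken. ATP5MC3 was closest to the sum (0.982), followed by ATP5PB (0.972), a stator subunit, and UQCRC1 (0.964). NDUFA9 (-0.807) was farthest from it among these 75, and below that level NDUFA4L2 had -0.881 and NDUFA13 -0.836. The sum of each complex was also set against the sum of the members of the other complexes, with a correlation of 0.938 for complex I, 0.847 for II, 0.983 for III, 0.968 for IV and 0.969 for V. Levels per kilobase of canonical transcript differed widely within a complex: in complex II SDHC had a mean of 80.41 CPM per kilobase and SDHA 4.325, in complex III UQCRH had 373.1 and UQCRB 12.91, and in complex I NDUFS5 had 351.5.

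The subunits encoded by mtDNA belong to the same complexes, and their values stand here beside those of the nuclear members. The 88 nuclear members took 0.5805% of library counts in hMN-D24 and 0.958% in NeuDet-D6, their lowest and highest group means, against 3.048% in hMN-D6 and 6.58% in hNMP-D4 for the 13 mtDNA-encoded subunits. In NeuDet-D6 against hNMP-D4, 11 of 13 mtDNA genes fell, with a median of -0.755, while 35 nuclear members rose. In hSCNPC-P5 against NeuDet-D6, 1 mtDNA gene rose and 1 fell, while 51 nuclear members fell. In hMN-D30 against hMN-D6, 6 mtDNA genes rose, with a median of 0.388, while 56 nuclear members fell. Over the 22 groups the sum of mtDNA genes correlated with that of all nuclear members at 0.666 and with complex II at 0.905. The limit given above for correlations over hMN and other groups holds here too. TFAM, the packaging factor of mtDNA, fell by 0.39 in NeuDet-D6, by 0.75 in hSCNPC-P5 and by 0.76 in hMN-D6, set against hNMP-D4, NeuDet-D6 and hSCNPC-P10 in that order.

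**Figure D5:**
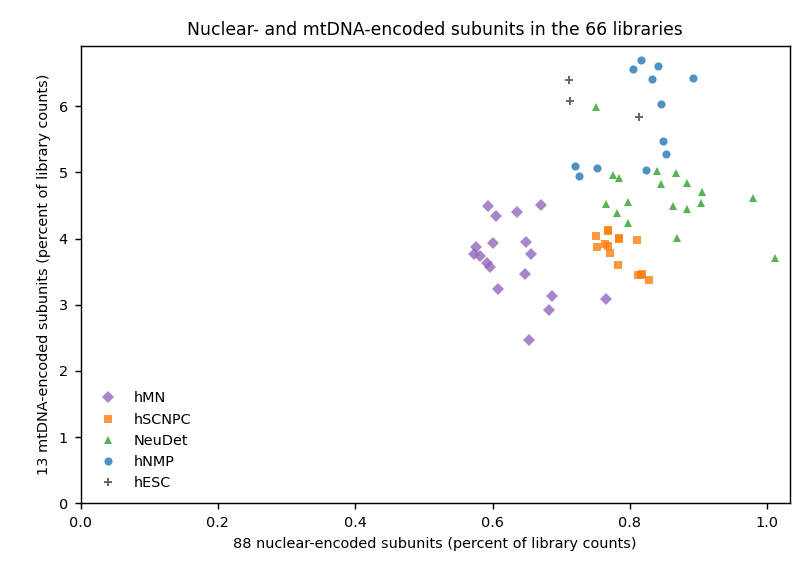
Share of library counts in the 13 mtDNA-encoded subunits (y axis, percent) against the share in the 88 nuclear-encoded members (x axis, percent), 1 point for each of 66 libraries, marked by stage. Most hMN libraries lie at the low end of the x axis, with hMN-D6 replicate 1 at 0.7651% among the hSCNPC libraries, and hNMP-D4 libraries are among the highest on the y axis.

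Assembly factors build the complexes but are not part of them. In NeuDet-D6 against hNMP-D4, 8 of 14 complex I factors rose and 2 fell, with NDUFAF3 at 2.03, and 12 of 22 complex IV factors rose and 4 fell. For complexes II and III, 4 of 4 and 4 of 6 rose, among them SDHAF3 at 1.05 and UQCC3 at 1.70. In hSCNPC-P5 against NeuDet-D6, 9 of 14 and 11 of 22 factors of complexes I and IV fell, led in complex I by TIMMDC1 at -1.13. In hMN-D30 against hMN-D6 the complex I factors were evenly split, 5 higher and 5 lower, where 20 of 35 subunits of that complex fell and 7 rose. CYCS, the cytochrome c that links complexes III and IV, fell by 1.16 in hSCNPC-P5 against NeuDet-D6 and rose by 0.56 in hSCNPC-P40 against hSCNPC-P5.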

How the data were processed

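Bulk RNA-seq libraries were prepared from poly(A) RNA with NEBNext kits and sequenced as paired ends. The deposited values are whole-number read counts per gene that the authors made by alignment with HISAT2 (version 2.1.0) to hg38 and counting with featureCounts (version 1.5.3) on GENCODE genes; the GENCODE release and the strand setting are not given in the sources used here. Counts were used as deposited, from 2 tables of the series.

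Identifiers were matched to symbols through the reference annotation (60261 of 60603). Libraries were grouped by their labels. Counts were fitted with edgeR (version 4.0.16): TMM scaling, filterByExpr and the quasi-likelihood F test, with Benjamini-Hochberg adjustment over 21597 genes (48 libraries, hESC to hSCNPC-P40) or 21175 genes (hMN and hSCNPC-P10), and a threshold of 0.05. SE is the log2 fold change divided by the square root of F. Overlap of exons and copies of 50-base windows in the genome were counted per member. The scripts were tested on simulated counts.

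The members, lists and tests were chosen with earlier results of these data known. Named members were the 6 largest called rises and falls of each comparison, isoform pairs, catalytic subunits, the highest and lowest per length and the extremes of correlation; other genes were named as the largest called of each list, and NRF1, GABPA, TFAM, CYCS, UQCRC1, UQCRH, NDUFS6, COX5B and NDUFV3 were named after their values were seen. A named member is not reported here. Alternatives were RLE and library-total scaling, no filter, DESeq2, a fit of the compared groups alone, a replicate block, leaving out each library, a test against a 1.5-fold change, hSCNPC-P5 in place of hSCNPC-P10, and other sums and shares. The members with at most 20% of exons overlapped or copied, a TMM scale over all 66 libraries for the correlations, and shares per kilobase of canonical transcript were added after seeing the data. Promoters came from RefSeq (GRCh38.p14).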

Additional observations from a re-analysis of the deposited data

How the results depend on the processing

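With library totals alone, hMN-D6 versus hSCNPC-P10 gave 28 members higher and 28 lower with a median of 0.011, NDUFS8 (0.155), ATP5F1B (0.0891) and COX4I1 (0.0198) changed sign, as did the sums of complex I (0.0227, and 0.0078 with totals without mtDNA-encoded genes) and complex IV (0.0816 and 0.0668). The same scaling gave 2 members higher and a median of -0.48 for hSCNPC-P5 versus NeuDet-D6 and a median of -0.20 for hMN-D30 versus hMN-D6. For hSCNPC-P10 versus hESC the median turned to -0.0298 with RLE and -0.0299 with DESeq2. The log2 difference of the summed level was 0.173 for NeuDet-D6 versus hNMP-D4, -0.293 for hSCNPC-P5 versus NeuDet-D6, -0.10 for hMN-D6 versus hSCNPC-P10, -0.249 for hMN-D30 versus hMN-D6 and 0.129 for hMN-D42 versus hMN-D30 with library totals. With totals without mtDNA-encoded genes it was -0.297, -0.115, -0.225 and 0.131 for the last 4 of these and 0.058 for hSCNPC-P40 versus hSCNPC-P5. As a median over members it was 0.328 for hNMP-D4 versus hESC, -0.436 for hSCNPC-P5 versus NeuDet-D6, 0.148 for hSCNPC-P40 versus hSCNPC-P5, -0.137 for hMN-D6 versus hSCNPC-P10 and 0.154 for hMN-D42 versus hMN-D30. Per kilobase of exon the shares in hESC, NeuDet-D6 and hMN-D30 were 17.8%, 14.2% and 22.4% for ATP5MC1, 38.9%, 44.6% and 33.2% for ATP5MC2, and 43.4%, 41.3% and 44.4% for ATP5MC3. Per kilobase of canonical transcript they were 19.1%, 14.6% and 24.99%, 63.7%, 69.8% and 56.6%, and 17.3%, 15.7% and 18.4%.

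The fit of the compared groups alone gave 3 members lower for hNMP-D4 versus hESC, 9 for NeuDet-D6 versus hNMP-D4 and 8 for hSCNPC-P40 versus hSCNPC-P5. Without a filter on low counts, 2 members were higher in hSCNPC-P5 versus NeuDet-D6. Among members with at most 20% of exons overlapped or copied, 1 was lower in hSCNPC-P40 versus hSCNPC-P5 and 6 were higher in hMN-D30 versus hMN-D6, from fewer members. edgeR's test against a 1.5-fold change lowered all 16 counts of members called. It uses the fold changes of the same fit and a stricter threshold, so the medians could not move and the counts could not rise. In it, members higher and lower numbered 0 and 1 for hNMP-D4 versus hESC, 5 and 2 for NeuDet-D6 versus hNMP-D4, 0 and 7 for hSCNPC-P5 versus NeuDet-D6, 0 and 0 for hSCNPC-P40 versus hSCNPC-P5, 5 and 4 for hSCNPC-P10 versus hESC, 4 and 8 for hMN-D6 versus hSCNPC-P10, 0 and 5 for hMN-D30 versus hMN-D6, and 0 and 0 for hMN-D42 versus hMN-D30; at an unadjusted p under 0.05 the zeros were 1 for hNMP-D4 versus hESC and otherwise 0.

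Leaving out 1 library at a time gave 3 to 5 members lower and a median of 0.192 to 0.380 for hNMP-D4 versus hESC, a median of 0.00454 to 0.166 for hSCNPC-P10 versus hESC, 9 to 13 lower and a median of 0.109 to 0.267 for NeuDet-D6 versus hNMP-D4 (9 without NeuDet-D6 replicate 3), 3 to 4 higher for hSCNPC-P5 versus NeuDet-D6, 16 to 23 higher and a median of 0.0542 to 0.137 for hSCNPC-P40 versus hSCNPC-P5, and a median of -0.36 to -0.20 for hMN-D30 versus hMN-D6. Same-numbered libraries did not deviate together (correlations of -0.031 to 0.052), and the replicate block moved none of the 24 counts and medians past these limits. Where no construction shows it, the cause of a change was not tested. Levels below 5 CPM, and shared or copied exons, limit the members named with them.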

Other observations

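Enzymes of the neighbouring pathways changed as well. Glycolytic genes fell in NeuDet-D6 against hNMP-D4 (14 of 20 lower, 2 higher), with a summed level of 7882.0 ± 338.0 CPM in NeuDet-D6 against 11160.0 ± 473.0 CPM in hNMP-D4 (SD, n = 3 each). In hSCNPC-P10 against hESC, 14 of 20 fell and 3 rose, with sums of 7623.0 ± 167.0 CPM in hSCNPC-P10 against 12000.0 ± 489.0 CPM in hESC. In hMN-D6 against hSCNPC-P10, 12 of 20 fell and 8 rose, with sums of 4631.0 ± 97.4 CPM in hMN-D6 against 9174.0 ± 295.0 CPM in hSCNPC-P10 on the hMN scale. In hSCNPC-P40 against hSCNPC-P5, 12 of 20 rose and 4 fell. In hMN-D42 against hMN-D30, 12 rose and 2 fell, with sums of 4704.0 ± 33.0 CPM in hMN-D42 against 4178.0 ± 74.4 CPM in hMN-D30. The background of these comparisons is that given for the subunits.

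Citric acid cycle genes rose in hNMP-D4 against hESC (10 of 14 higher, 2 lower) and in hSCNPC-P40 against hSCNPC-P5 (10 of 14 higher), and 9 of 14 fell in NeuDet-D6 against hNMP-D4. In hMN-D6 against hSCNPC-P10, 9 of 14 fell and 3 rose. Mitochondrial carriers rose in hSCNPC-P40 against hSCNPC-P5 (6 of 7 tested) and in hMN-D42 against hMN-D30 (5 of 7). They fell in hSCNPC-P10 against hESC (6 of 7, with 1 higher) and in hMN-D6 against hSCNPC-P10 (5 of 7, with 2 higher).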
